A study of Mus musculus with 4 samples.

Results

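The olfactory receptor genes of mouse chromosome 9 were examined for islands of H3K9me3, trimethylation of lysine 9 on histone H3, in cultured CD8+ T cells. The members were taken from the RefSeq gene table of assembly GRCm38.p6 (mm10) as protein-coding genes on chromosome 9 whose symbols follow the olfactory receptor pattern. This gave 130 of the 1109 olfactory receptor genes and of the 21774 protein-coding genes in the table. One of them, Olfr911-ps1, carries a pseudogene symbol although the table lists it as protein-coding. The series compared wild-type cells (WT) with Suv39h1-KO cells (KO), in which the gene of the H3K9 methyltransferase SUV39H1 was knocked out. Per the labels, both genotypes were on a C57BL/6 background, the controls were littermates, and the cells were activated for 3 days with anti-CD3, anti-CD28 and IL-2. The knockout allele, the age and sex of the mice and any pooling of animals were not given in those labels. Chromatin immunoprecipitation followed by sequencing (ChIP-seq) gave 1 H3K9me3 library per genotype, each deposited as a list of islands, which are stretches of the genome enriched for reads. The input libraries were not analysed here.

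Olfactory receptors are G protein-coupled receptors that detect odorants in the nose. Their genes form the largest gene family of the mouse and lie in tandem arrays, usually with the coding sequence in 1 uninterrupted exon. In olfactory sensory neurons H3K9me3 packs nearly the whole family into silent chromatin, and each neuron expresses a single receptor allele that escapes it. The arrays are also read here as what they are in sequence, long blocks of similar short genes.

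There were 12371 islands in the WT list, holding 5547695 reads, and 25424 in the KO list, holding 10020253. On chromosome 9 there were 659 WT and 1121 KO islands. The reads are those inside islands only and were not scaled to library depth or input, so KO had both more islands and more reads in them before any gene was considered. With 1 library per genotype there was no replicate, no test between genotypes was possible, and every difference below describes these 2 libraries. An island list does not measure expression. Of 12 genes that mark T cells or CD8+ T cells, among them Cd3e, Cd3d, Cd3g and Thy1 on the same chromosome, none had an island in either library, which neither checks nor contradicts the cell label. Among 7 markers of other cells, Adgre1 had 16.5 kb of WT and 11.5 kb of KO islands and Ncr1 10.2 kb in WT alone.

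More receptor genes lay under islands in KO than in WT. A gene counted as having an island where at least 1 base of the gene with 2 kb on each side was covered. In WT 40 of the 130 members had an island (30.8%, exact 95% binomial interval 23.0 to 39.5), where 14% of all protein-coding genes did. In KO 87 members had one (66.9%, 58.1 to 74.9), where 13.7% of all protein-coding genes did. The intervals cover the counting of genes only, and since some neighbouring receptors share an island they are too narrow. Islands of both genotypes lay over 33 members, against 7.58% of all genes. A further 54 members had an island in KO alone, against 6.16% of all genes, and 7 in WT alone, against 6.39%. The remaining 36 had none in either list. Of the members with a WT island 82.5% also had a KO island, and of those with a KO island 37.9% also had a WT island. When the KO list was cut to the WT number of islands, the KO count was 59 members with the islands of most reads kept and 49 with the islands of most reads per kb kept. Those settings drop only KO islands, and the share of all genes with a KO island was then 8.40% and 8.99%.

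Among covered members the median covered length was alike in the genotypes, but the length of the region caps it. Cover ran from 0.058 to 12 kb with a median of 4.89 kb in WT, and from 0.112 to 14 kb with a median of 4.87 kb in KO. Summed over the members it came to 159 kb for WT and 372 kb for KO. The whole region, gene and both flanks, lay in islands for 14 members in WT and 32 in KO. Over all protein-coding genes these shares were 0.882% in WT and 1.3% in KO. Receptor genes are short, with a median length of 948 bases, so an island of ordinary length more easily spans one. With 2 kb on each side, a gene of that length can hold little more cover than the medians above. Their likeness can therefore come from the measure. Of the covered members 6 in WT and 9 in KO had less than 1 kb of cover, and of the uncovered ones 1 in WT and 3 in KO lay within 1 kb of an island. Distances to islands are measured here and below from the region with its 2 kb flanks, and from the gene itself they are 2 kb longer. The uncovered members lay at a median of 19.9 kb from the nearest WT island and 6.93 kb from the nearest KO island.

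**Figure D1:**
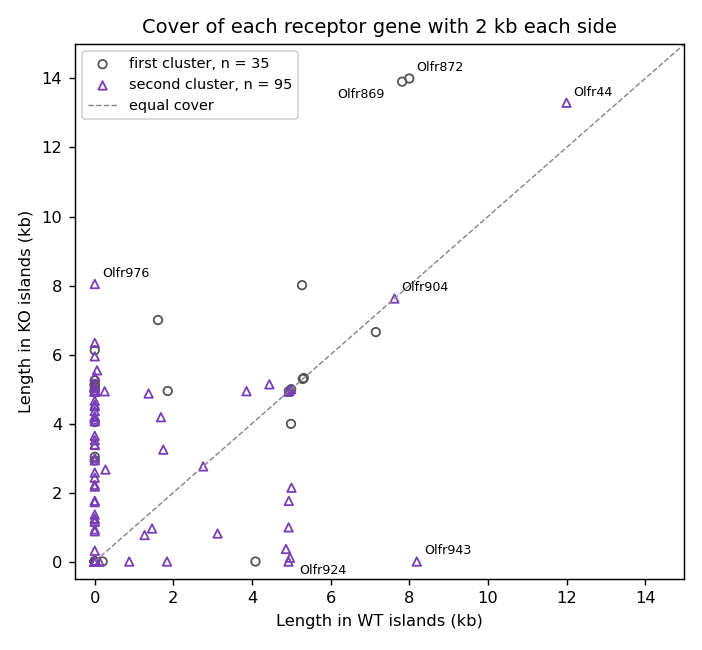
Length of each receptor gene with 2 kb on each side that lay in WT islands (x axis, kb) and in KO islands (y axis, kb); circles are the 35 members of the first cluster, triangles the 95 of the second, and the dashed line marks equal cover. The column of points at 0 kb in WT holds the 54 members covered in KO alone, while the row at 0 kb in KO holds the 7 covered in WT alone, and Olfr44, Olfr869 and Olfr872 lie highest on the KO axis.

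The members fell into 2 clusters when neighbours up to 500 kb apart were joined. The first held 35 genes from Olfr24 to Olfr18 (chr9:18754692-20336094, mm10) and the second 95 genes from Olfr160 to Olfr986 (chr9:37711348-40188094), with 17.4 Mb between them. Neighbouring genes were spaced at a median of 33.1 kb in the first cluster and 21.3 kb in the second. WT had 24 islands and KO 52 in the first cluster, and WT had 30 and KO 84 in the second. In the first cluster 17.1% of the sequence lay in WT islands and 33.8% in KO islands, a ratio of 1.98. In the second the shares were 13.7% and 36.8%, a ratio of 2.69. On the rest of chromosome 9 they were 5.58% and 7.99%, a ratio of 1.43. The clusters thus had more cover than the rest of the chromosome in both libraries, and the difference between the libraries was wider inside them.

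**Figure D2:**
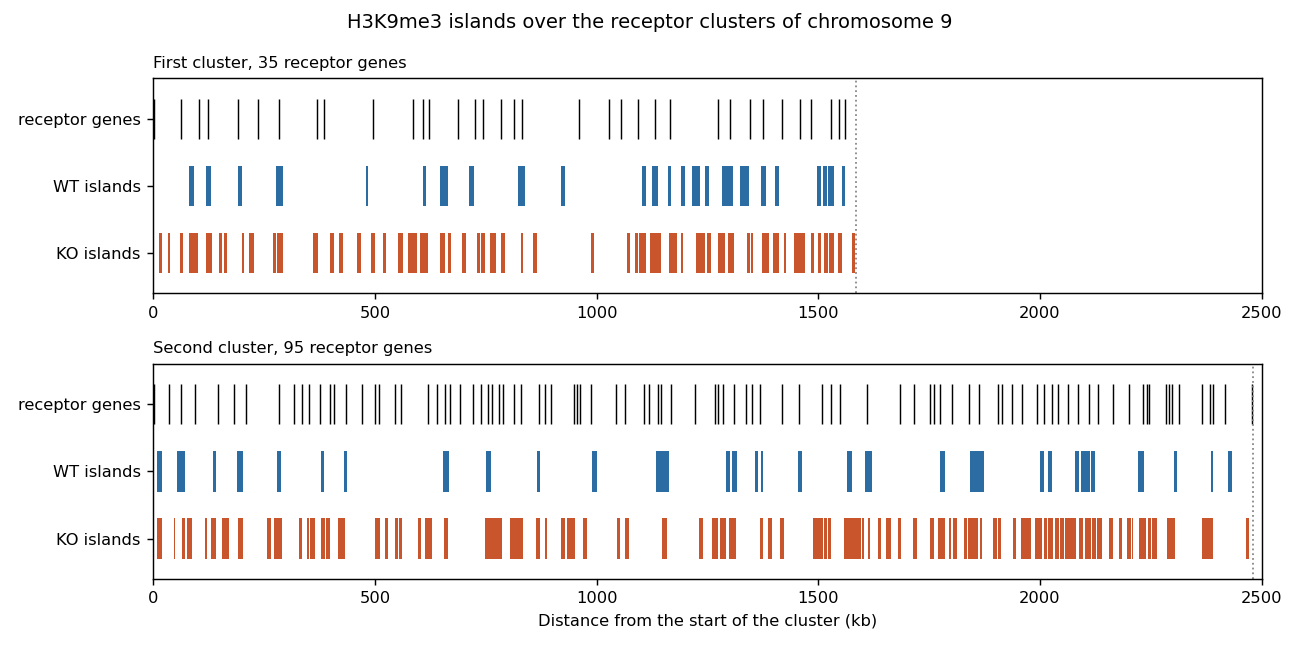
Receptor genes (black ticks at each gene start), WT islands (blue) and KO islands (orange) along the first and second cluster, by distance in kb from the cluster start; the dotted line is the end of the cluster. KO islands are spread along both arrays, with 52 in the first and 84 in the second, whereas the 24 and 30 WT islands leave longer stretches empty.

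Most of the WT cover in the clusters was also KO cover. The lists shared 162 kb in the first cluster and 208.5 kb in the second. That was 60.7% of the WT length and 25.6% of the KO length over both clusters. On the rest of the chromosome the shared length was 29.9% of WT and 20.9% of KO. Of the 54 WT islands 46 were overlapped by a KO island (85.2%), compared with 48% in the whole WT list. Of the 136 KO islands 50 were overlapped by a WT island (36.8%), compared with 24.9% in the whole KO list. KO islands filled more of the clusters than of the genome, which by itself raises the overlap, and its part in these shares was not tested. The islands themselves were of ordinary density. Their median was 41.3 reads per kb in WT and 40.9 in KO, beside 40.4 and 40.1 over the whole lists, and their highest value was 46.4 in WT and 51.2 in KO, beside 59 and 55.5 at the 99th percentile of the lists. Median island length was 9.50 kb (WT) and 9 kb (KO).

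Around the second cluster KO cover stopped near the ends of the array, whereas further WT islands lay within 1 Mb on both sides. Before the first cluster, cover of both libraries broke off at the edge, with 0% in the first 100 kb window outside. It resumed farther out, with the nearest islands at 116 kb (WT) and 235 kb (KO). In the 1 Mb after the first cluster, cover ended soon in KO and somewhat farther out in WT. Edges were set 2 kb beyond the outermost receptor genes. In the 1 Mb before the second cluster, which holds or touches 19 protein-coding genes, islands covered 4.40% in WT and 0.735% in KO. In the 1 Mb after it the values were 7.95% and 0.55%. One KO island ran 7.35 kb past the first edge. Beyond it the next KO island lay 1024 kb from the edge, while the nearest WT island outside lay at 312 kb. Past the last edge the nearest islands lay at 25.9 kb (WT) and 27.9 kb (KO), and no other KO island followed within 1 Mb. At the first cluster the 1 Mb before was covered by 11.6% in WT and 13.9% in KO, and the 1 Mb after by 5.30% and 3.10%. Single 100 kb windows before the first cluster reached 35.5% in WT and 26.5% in KO, and the first window after it held 23.6% and 26.1%. The second window after it held 18.9% in WT and 4.91% in KO. Beyond that KO cover was 0% in every window, and a single WT window held cover, 10.5%. The first window after the second cluster held 23% in WT, above the 14.5% of the last window inside, and 5.50% in KO. In 3 of these 4 neighbouring regions WT had more cover than KO, the opposite of the clusters between them.

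**Figure D3:**
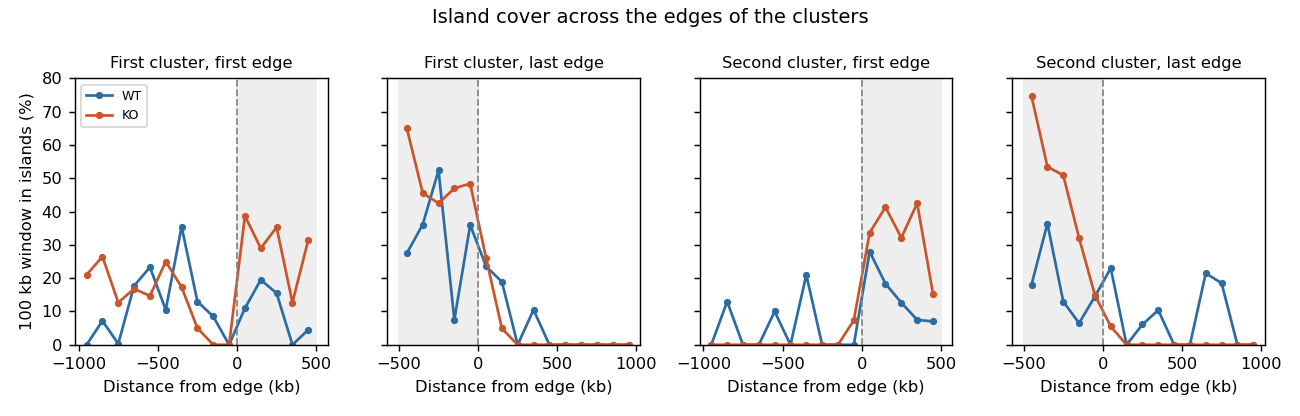
Share of each 100 kb window that lay in WT (blue) or KO (orange) islands, in %, by distance in kb from the first and last edge of each cluster; the shaded side is inside the cluster. Outside the second cluster the KO line stays at 0 from 100 kb to the end of the plot on each side, while WT windows there reach 21.5%.

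Along each array the cover varied in 250 kb steps. In the first cluster it was highest in the part from Olfr58 to Olfr18. From Olfr58 to Olfr77 the WT share was 23.1% and the KO share 39.7%, and from Olfr866 to Olfr872 they were 27.4% and 45.4%. In the last step, from Olfr39 to Olfr18, which is only 85.4 kb long with 3 members, they were 39% and 49.5%. In the second cluster KO cover peaked from Olfr965 to Olfr976, at 62%, and WT cover there was 27%, its highest value in that cluster. All 12 members of this step had a KO island and 5 a WT island. The lowest KO share of the second cluster, 13.8%, lay from Olfr920 to Olfr930, beside 11.8% in WT. The longest unbroken series of covered members in KO held 29 genes, from Olfr948 to Olfr980, of which 9 had a WT island. In WT no more than 2 consecutive members were covered. The longest series without a WT island held 7 genes and occurred in 2 places, from Olfr891 to Olfr898, where 5 had a KO island, and from Olfr975 to Olfr982, where 6 did. The longest without a KO island held 4 genes and also occurred in 2 places, from Olfr876 to Olfr878 and from Olfr251 to Olfr902, with 1 gene covered in WT in each.

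Among the 33 members covered in both genotypes, 30 had bases that lay in islands of both lists. Cover was longer in KO for 14, longer in WT for 10 and equal for 9. Olfr44 (chr9:39484204-39493988) had the longest summed cover, with 12 kb under its WT island and 13.3 kb under its KO island. Its WT island, chr9:39483501-39495500, held 467 reads, and its KO island, chr9:39479001-39495500, ended at the same base and held 683. Olfr872 was covered over 8 kb in WT cells and 14 kb in KO cells. Its 2 KO islands, chr9:20236001-20243500 and chr9:20252001-20258500, lay at the gene start and inside the gene, and the single WT island, chr9:20250001-20258000, met the second of them. Olfr869 was covered over 7.82 kb (WT) and 13.9 kb (KO), and it had the largest difference among members covered in both, 6.09 kb. Olfr872, at 6 kb, and Olfr983, with 0.058 kb (WT) and 5.54 kb (KO), followed. Olfr904 was covered over its whole region, 7.62 kb, in each list. Its KO island, chr9:38457001-38496000, also spanned Olfr905 and Olfr906. At 39 kb with 1516 reads it was the longest KO island of chromosome 9. The WT island at the same place, chr9:38460501-38471000, was 10.5 kb long with 431 reads and reached only 0.252 kb of the region of Olfr905 and none of Olfr906.

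The members covered in KO alone were led by Olfr976, with 8.04 kb in 2 islands and the nearest WT island 7.76 kb away. Olfr27 had 6.33 kb and lay 16.9 kb from the nearest WT island. Olfr860 had 6.12 kb in 2 islands. Olfr910 had 5.95 kb, its whole region, under a KO island of 30.5 kb (chr9:38513501-38544000, 1168 reads) that it shared with Olfr911-ps1. No WT island lay closer to Olfr910 than 32.2 kb. Of these 4 genes 3 belong to the second cluster.

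The members covered in WT alone were fewer and mostly less covered. Olfr943 had 8.19 kb in WT, in 1 island (chr9:39164001-39172500, 358 reads), and the nearest KO island lay 10.4 kb away. Olfr924 was covered over its whole region, 4.93 kb, by a WT island of 29.5 kb (chr9:38843501-38873000, 1071 reads) that it shared with Olfr26. Olfr26 was itself covered over 4.93 kb (WT) and 0.99 kb (KO). Olfr832 had 4.09 kb in WT and Olfr145 1.84 kb, with KO islands 4.41 and 0.662 kb away. Olfr145 would therefore have counted as covered in both with a slightly wider flank.

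The 36 members with no island lay at distances of 0.67 to 31.8 kb from the nearest island of either list, with a median of 5.77 kb. Farthest away were Olfr58, at 31.8 kb from KO and 67.9 kb from WT islands, and Olfr891, at 26.2 and 31.9 kb. The genes at the ends of the arrays differed in cover. Olfr24 and Olfr986 had no island. Olfr160 had 1.15 kb in KO alone, and Olfr18 was covered over 1.61 kb (WT) and 7 kb (KO).

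Start windows, the 250 bases before and the 50 bases from the annotated gene start, were found in the RefSeq table for 109 members (build GRCm38.p6). They are printed for the leading members with islands in both lists (Olfr44, Olfr872), in KO alone (Olfr976, Olfr27) and in WT alone (Olfr943), and for the member farthest from any island (Olfr58), to show the sequence that was and was not covered. Capitals mark the homeodomain-like letters TAATTA or TAATTG on either strand. The windows lie at chr9:39493939-39494238 (minus strand) for Olfr44, chr9:20236912-20237211 (plus) for Olfr872, chr9:39960995-39961294 (minus) for Olfr976, chr9:39127917-39128216 (plus) for Olfr27, chr9:39166060-39166359 (plus) for Olfr943 and chr9:19780033-19780332 (plus) for Olfr58. Each is written 5′ to 3′ on the gene's strand.
Olfr44: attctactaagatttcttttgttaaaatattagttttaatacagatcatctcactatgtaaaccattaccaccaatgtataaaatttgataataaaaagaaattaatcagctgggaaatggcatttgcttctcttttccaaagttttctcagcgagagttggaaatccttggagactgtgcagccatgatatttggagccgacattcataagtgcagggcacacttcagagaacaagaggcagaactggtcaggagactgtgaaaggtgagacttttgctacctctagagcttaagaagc
Olfr872: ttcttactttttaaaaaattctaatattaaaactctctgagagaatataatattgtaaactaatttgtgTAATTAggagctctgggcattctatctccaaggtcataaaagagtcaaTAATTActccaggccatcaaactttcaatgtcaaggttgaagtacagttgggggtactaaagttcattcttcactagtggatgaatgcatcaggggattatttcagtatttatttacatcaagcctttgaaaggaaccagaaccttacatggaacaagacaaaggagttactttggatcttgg
Olfr976: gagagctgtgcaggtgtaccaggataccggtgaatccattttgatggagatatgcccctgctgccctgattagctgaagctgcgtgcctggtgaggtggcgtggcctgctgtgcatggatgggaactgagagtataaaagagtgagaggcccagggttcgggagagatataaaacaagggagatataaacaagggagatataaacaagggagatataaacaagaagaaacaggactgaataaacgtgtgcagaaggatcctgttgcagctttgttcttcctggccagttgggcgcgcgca
Olfr27: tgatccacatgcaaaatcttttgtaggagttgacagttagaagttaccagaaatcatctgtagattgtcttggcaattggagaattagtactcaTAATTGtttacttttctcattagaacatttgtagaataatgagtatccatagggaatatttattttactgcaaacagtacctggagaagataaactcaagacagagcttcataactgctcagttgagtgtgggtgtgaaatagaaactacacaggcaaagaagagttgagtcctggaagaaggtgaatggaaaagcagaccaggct
Olfr943: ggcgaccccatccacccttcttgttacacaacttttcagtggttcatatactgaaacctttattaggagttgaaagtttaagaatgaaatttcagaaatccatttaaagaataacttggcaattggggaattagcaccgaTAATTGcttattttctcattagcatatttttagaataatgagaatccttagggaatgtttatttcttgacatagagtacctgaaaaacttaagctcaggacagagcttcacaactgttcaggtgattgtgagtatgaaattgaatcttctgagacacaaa
Olfr58: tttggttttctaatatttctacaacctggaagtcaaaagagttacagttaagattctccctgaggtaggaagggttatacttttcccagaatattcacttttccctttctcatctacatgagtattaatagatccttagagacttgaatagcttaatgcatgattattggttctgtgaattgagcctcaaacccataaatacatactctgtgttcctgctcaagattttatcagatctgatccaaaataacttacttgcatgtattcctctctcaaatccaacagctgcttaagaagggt

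The window of Olfr44 lay wholly in an island in both lists. Those of Olfr872 and Olfr27 lay wholly in a KO island and outside WT islands, and that of Olfr943 lay wholly in a WT island and outside KO islands. Olfr976 has 2 annotated start windows, of which only 1 is printed. The printed window was in no island, since the 2 KO islands of the gene lay on either side of this start. Olfr27 and Olfr943 are neighbours of 1 subfamily on the same strand. Their windows were 66.3% identical in an alignment and both hold TAATTG, yet the first was covered in KO alone and the second in WT alone. The other printed pairs were 45 to 55.7% identical.

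Over all 109 members with such a window, at least 1 window of the member touched a WT island in 25 and a KO island in 56. That was 22.9% and 51.4%, where 3.53% and 3.98% of the protein-coding genes with a window did. Nearly every touched window was covered whole, 24 in WT and 54 in KO. In 68 of the 109 the annotated start is an ATG, so those gene models begin at the start codon and the window is not a transcription start. Cover was somewhat higher at the genes than between them. Receptor genes with 2 kb on each side lay in WT islands over 20% of their length and in KO islands over 46.7%, and the sequence between them over 13.8% and 32.9%. Averaged by distance from the gene start, cover in WT was 22.8% within 2 kb and 12.8% at 15 to 20 kb. In KO it was 48.9% and 36.5%. The sides differed at that distance, with 14.4% upstream and 11.2% downstream in WT, and 31.3% upstream and 41.6% downstream in KO. Downstream KO cover was 34.5% at 10 to 12 kb and thus rose again beyond it, above the 35.6% of both clusters as a whole. The WT average peaked at 26.9%, 2.25 kb upstream of the start, and the KO average at 51.8%, 2.25 kb downstream.

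**Figure D4:**
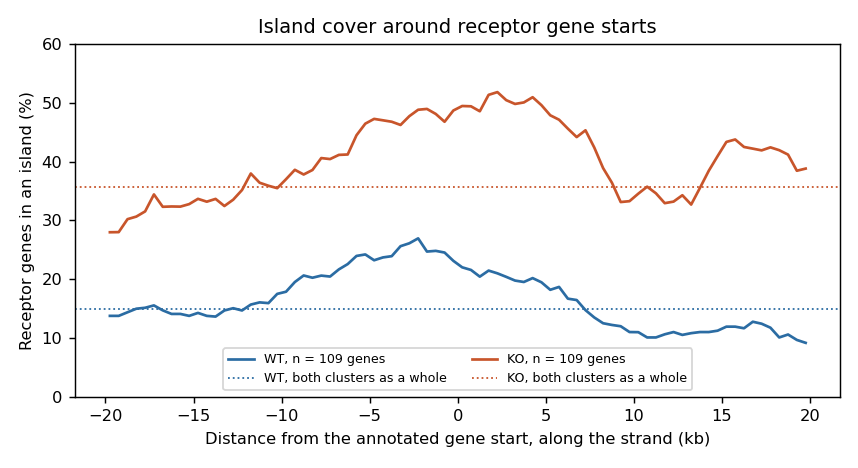
Share of the 109 receptor genes with known strand that lay in an island (y axis, %) by distance from the annotated gene start along the strand (x axis, kb), for WT (blue) and KO (orange); dotted lines are the cover of both clusters as a whole. Both curves are highest near the start, at 26.9% in WT and 51.8% in KO, and both average below the dotted lines at 10 to 12 kb downstream, after which KO rises above its line again, to 41.6% on average at 15 to 20 kb.

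The start windows were poor in G and C. Their median GC content was 34%, compared with 35.3% in receptor genes of other chromosomes and 56.3% over all protein-coding genes, and their median number of CG dinucleotides was 1, compared with 13. GC content was alike in members covered in both lists (34%), in KO alone (34.3%), in WT alone (33.7%) and in neither (34.5%). The motif CCCNNGGG, the core of sites bound by EBF (Olf1) factors, occurred on either strand in 2 members, 1.83%, and in 17.6% of all genes with a window. TAATTA occurred in 28 members (25.7%, all genes 5.37%) and TAATTG in 23 (21.1%, all genes 7.96%). In receptor genes of other chromosomes the shares were 3.23% for CCCNNGGG, 17.7% for TAATTA and 23.6% for TAATTG. The last 2 are cores of homeodomain sites such as those of LHX2, and they can share bases with each other. GC content moves with these shares, and its part in them was not tested. In 68 of the 109 members the window lies at an ATG and not at a transcription start. The GC content and motif shares may therefore compare unlike sequence with other genes, which was not tested either. By island class TAATTA lay in 7 of 29 members covered in both lists, 13 of 46 in KO alone, 1 of 6 in WT alone and 7 of 28 in neither. TAATTG lay in 4 of 29, 13 of 46, 3 of 6 and 3 of 28 in the same order, a less even spread over small counts that was not tested.

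How reads with several matches were handled was not stated in the submitters' notes, and whether reads were shared between receptor copies was not tested. Identity could be computed for start windows of chromosome 9 members only, not over coding sequence, islands or receptors elsewhere. The best match of a member's window among the other members had a median identity of 63%. It reached 90% in 4 of 109. Olfr924 and Olfr926, at 94.3%, were the closest pair, and Olfr924 was covered in WT alone whereas Olfr926 had no island. The other pair, Olfr968 and Olfr972, at 90%, was covered in KO alone. Among the 105 members without such a match 34 had a WT island and 73 a KO island.

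The table's synonyms place the members in 29 subfamilies, named MOR with a number, which group receptors of like sequence. Most islands that touched a member touched no other, 30 of 35 in WT and 71 of 81 in KO, and none in the first cluster touched more than 1. KO covered more members than WT in 16 subfamilies, WT more in 3, and the number was equal in 10. MOR171, the largest with 35 members, spread over much of the second cluster and 13 of its members lay under WT and 26 under KO islands. MOR224 had 2 of 10 in WT and all 10 in KO. MOR223 had 0 of 5 and 4 of 5, MOR165 1 and 6 of 8, MOR170 2 and 6 of 9, and MOR162 4 and 7 of 10. In the first cluster MOR145 had 3 of 6 in WT and 6 of 6 in KO, and MOR146 1 and 2 of 5. MOR161, mostly at the start of the second cluster, was the only one of the 9 subfamilies with 5 or more members in which WT had more, 2 of 6 against 1. MOR147, with 3 members, and MOR153, with 2, each had 1 member covered in WT and 0 in KO. MOR164 had no island in any of its 3 members.

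**Figure D5:**
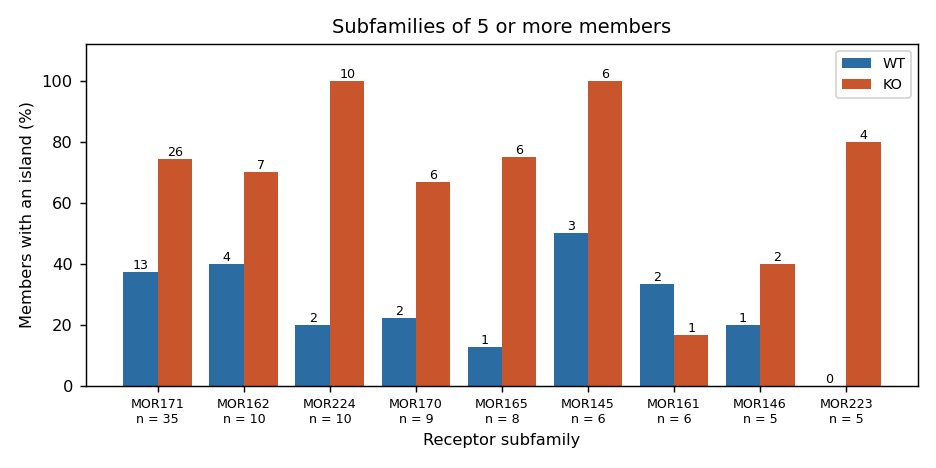
Share of members with an island in WT (blue) and KO (orange), in %, for the 9 subfamilies with at least 5 members; the number above each bar is the count of covered members. MOR224 and MOR145 reach 100% in KO, and MOR161 is the one subfamily shown where the WT bar is higher.

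Receptor genes elsewhere in the genome also met KO islands more often than WT islands. The margin on chromosome 2 was nearly as wide as on chromosome 9, and it was smaller on chromosomes 7 and 10 to 19. On chromosome 2, 49 of 287 members were covered by WT islands and 148 by KO islands. On chromosome 7 the counts were 67 and 91 of 239, and on chromosomes 10 to 19 together 123 and 174 of 361. The KO share was 36.2 percentage points above the WT share on chromosome 9, 34.5 on chromosome 2, 10 on chromosome 7 and 14.1 on chromosomes 10 to 19. With the KO list cut to the WT number of islands by reads per kb, 24.7% of the receptor genes outside chromosome 9 had a KO island. A WT island lay over 25.6% of them, so the KO share was no longer the higher there. On chromosome 9 the KO and WT shares were 37.7% and 30.8%. Cut by reads, they were 29% and 25.6% outside chromosome 9 and 45.4% and 30.8% on it. Both cuts drop only KO islands, which lowers the KO share of any gene set. Over all protein-coding genes that share was 8.99% when cut by reads per kb and 8.40% when cut by reads, beside 14% in WT. The shares outside chromosome 9 pool all other chromosomes, and chromosome 2 was not counted alone under these cuts. The same rule gave 16 receptor clusters with at least 20 members in the genome, the 2 of chromosome 9 included. KO cover of these ran from 1.02 to 46.6% with a median of 27%, and was above WT cover in 14. In the 22 smaller clusters, of 3 to 19 members, KO cover was higher in 9, WT cover in 8, and 5 were equal, 4 of these with no island in either list. Among the 16, the second cluster of chromosome 9 ranked 5 in KO cover and 10 in WT cover, and the first ranked 6 and 7. By the ratio of KO to WT cover the second ranked 3 and the first 7. Clusters of chromosome 2 held ranks 1 and 2, with ratios of 3 and 2.79. The other protein-coding genes of chromosome 9 numbered 1071, of which WT islands covered 153 and KO islands 119, so the excess in KO was not shared by the rest of the chromosome's genes.

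The 4 protein-coding genes that are not receptors but lie inside the arrays had little or no cover. That is usual, since 79.9% of all protein-coding genes had no island in either list. Zfp317, a zinc finger gene inside the first cluster (chr9:19622038-19649743), and Vwa5a and Tmem225 inside the second had no island in either list. AW551984 had 2.77 kb in KO alone. At the borders, measured from the outermost receptor gene, the mucin gene Muc16, 79.9 kb before the first cluster, was covered over 21.5 kb (WT) and 5 kb (KO). The zinc finger gene Zfp560, 9.04 kb after it, had 6.87 kb in KO alone. Panx3, a pannexin channel gene 42.1 kb before the second cluster, and Zfp202, 4.22 kb after it, had none.

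The genes with which the receptors work were not covered in the same way. Of 31 genes of olfactory signalling, receptor export and receptor choice, WT islands lay over 6 and KO islands over 5, close to the shares of all genes given above. In signalling, Gnal, the G protein subunit that couples to the receptors, was covered over 15 kb (WT) and 6 kb (KO). The calcium-activated chloride channel gene Ano2 had 12.5 and 28 kb, and the phosphodiesterase gene Pde1c 32 and 65 kb. Adcy3, the cyclase that makes the cyclic AMP signal, the channel genes Cnga2, Cnga4 and Cngb1, and Omp, the marker of mature olfactory neurons, had none. Neither did Rtp1 and Rtp2, which help receptors to the cell surface. Among regulators of receptor choice, Ebf1 was covered over 10.5 kb (WT) and 6 kb (KO), Ebf4 13 kb and Emx2 3.86 kb in WT alone, and Ebf2 8.50 kb in KO alone. Lhx2, Ldb1, Lbr and Kdm1a had none. Of 15 genes for H3K9 methylation, its removal and its readers, Kdm4c alone had an island, of KO.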

How the data were processed

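H3K9me3 was profiled by ChIP-seq with 100-bp paired-end reads in 1 WT and 1 KO library, per the labels' protocols. Per the submitters' processing notes, Bowtie2, SICER 1.1 and build mm10 were used. How windows, gaps, significance and the input entered the calling was not stated there. The deposited files hold, without a header, the position of each island and a whole-number count, read as ChIP reads per island and not scaled by the authors, per their values. Whole-library depth is unknown. Island positions lie on a grid of 500 bases and were converted to positions counted from 1.

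Genes came from RefSeq (GRCm38.p6). The 365 rows for scaffolds, recognised by table order, were left out. Regions were genes with 2 kb on each side. Overlap and covered length were computed in Python 3.11.15 (pandas 2.3.3), alignments with Biopython 1.88, intervals (exact Clopper-Pearson) with scipy 1.17.1. Interval functions were tested on simulated data. Genes were named by covered length within island class, by position at cluster ends and by distance from islands. Olfr905, Olfr906, Olfr911-ps1, Olfr26, Olfr926, Olfr968, Olfr972 and the genes that bound a step or series were added after their values were seen, as were the subfamily, edge, step and start-window comparisons. The members, gene lists and settings were chosen with earlier results of these data known. Alternatives covered flanks, least overlap, island filters, reduced KO lists and cluster gaps.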

Additional observations from a re-analysis of the deposited data

How the results depend on the processing

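No paired analysis was possible because there is a single library per genotype. KO covered more members than WT in 10 of 10 settings and more of the clusters in 8 of 8, but the size of the gap varied. Some settings returned the main values, so these tallies count the main result again. Merging islands, or dropping the 1% of islands with most reads per kb, left all member counts as they were. That dropping and the other cluster gaps left the cover as it was. Of 66 values 43 stayed within 1.5 times the reported count or, for cover, within its binomial interval over steps of 500 bases. Of these 20 were identical, mostly because the setting could not touch them, as with WT counts when only the KO list was cut. Neighbouring steps of 500 bases lie in the same islands, so the interval for cover is too narrow. With 10 kb on each side 55 members were covered in both, and 60 in WT and 113 in KO, where 18.7% and 17.6% of all genes were. Without flanks 26 had an island in WT, 69 in KO and 18 in both (all genes 12.4% in WT, 12.3% in KO). With start windows alone the counts were 25 in WT, 56 in KO and 17 in both, of 109 members (all genes 3.53% in WT, 3.98% in KO). With at least 50% of the region covered they were 23 in WT and 15 in both, with 62 in KO (all genes 2.599% in WT, 3.23% in KO). Above the median of reads per kb they were 25 in WT, 51 in KO, 12 in WT alone and 13 in both, with 7.45% of the clusters covered in WT and 20.5% in KO (all genes 8.95% and 9.09%). With the KO list cut to the WT number by reads, 59 had an island in KO (all genes 8.40%), 34 were in KO alone, 15 in WT alone, and KO cover was 24.9%. Cut by reads per kb, 49 had an island in KO (all genes 8.99%), 29 in KO alone, 20 in WT alone and 20 in both, and KO cover was 19.96%. Merging islands closer than 5 kb gave 37.7% KO cover. Shares of all genes covered in both lists or in 1 alone were not computed under these settings. The member counts of those classes therefore lack that comparison, and their shifts are not read as results about the members. These settings widen, shorten, remove or join what can be counted, and the cause of a shift was otherwise not tested. Whole-library depth and input were not analysed here, so a lack of an island does not show a lack of the mark.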

Other observations

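Receptor pseudogenes inside the arrays, which encode no working receptor, also met KO islands more often than WT islands. The table lists 47 within the 2 clusters, and WT islands lay over 9 of them (19.1%) and KO islands over 27 (57.4%), beside 30.8% and 66.9% of the 130 members and 14% and 13.7% of all protein-coding genes. Both genotypes covered 8, KO alone 19, WT alone 1 and neither 19, which is 40.4% beside 27.7% of the members. In the first cluster WT islands lay over 5 of 16 and KO islands over 8, and in the second over 4 and 19 of 31. The WT share in the second cluster was 12.9%, beside 28.4% of its members. These differences between pseudogenes and members were not tested. The longest cover was over Olfr947-ps1 (chr9:39287924-39299481), with 15.6 kb in KO and 0 kb in WT. Olfr946-ps1 beside it was covered over 2.71 kb (WT) and 4.95 kb (KO). Both pseudogenes were singled out after their values were seen.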
